A study of Mus musculus with 6 samples.

Results

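Carbonic anhydrases are zinc enzymes that interconvert carbon dioxide and bicarbonate, and this account describes 9 of their genes in mouse proximal colon: Car1, Car2, Car4, Car5b, Car7, Car8, Car12, Car13 and Car14. They were found by taking every probe set with one of these gene symbols and no other, which gave 12 of the 22626 non-control probe sets on the array and at least one for each of the 9 genes. Tissue came from 3 mice with a gene-trap allele beside a normal copy of Mthfd1 (genotype Mthfd1/+) and 3 wild-type mice, all 8 weeks old and kept for 5 weeks from weaning on the same AIN-93G control diet. Total RNA of the proximal part of the colon was hybridised to 1 array per mouse, so each group has n = 3. Mthfd1 encodes a cytosolic enzyme of folate metabolism. The sources used here name neither strain nor sex nor the insertion site of the trap.

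In the colon the surface epithelium absorbs sodium and chloride in exchange for protons and bicarbonate, and carbonic anhydrases supply both ions inside the cell and at its surface. The family is divided by location: Car1, Car2, Car7 and Car13 encode cytosolic enzymes, Car5b a mitochondrial one, Car4 an enzyme held on the outer cell surface by a lipid anchor, and Car12 and Car14 enzymes that span the membrane with the active site outside. Car8 encodes a related cytosolic protein that has lost the enzymatic activity and binds an inositol trisphosphate receptor. Car1 and Car4 are widely used as markers of colon epithelium.

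Car13, Car1 and Car2 lie close together on chromosome 3 of the GRCm38.p6 build, at positions 14641727 to 14663002, 14766214 to 14808365 and 14886269 to 14900770, with Car3 between the last pair. The other members are scattered, with Car8 on chromosome 4, Car7 on chromosome 8, Car12 on chromosome 9, Car4 on chromosome 11, Car5b on the X chromosome and Car14 elsewhere on chromosome 3. The RefSeq table of start regions held windows for 5 of the 9 members. Those of Car4 and Car12 are shown, as the pair of membrane-bound members whose signals were inversely related over the 6 arrays (r = -0.81, which did not pass after adjustment). Each is the 250 bases before the listed start, on the plus strand, and capitals mark a GC box. The window is chr11:84957504-84957753 for Car4, next to the first annotated base of the gene at 84957754. For Car12 it is chr9:66713436-66713685, which lies inside the annotated gene, since that begins at 66712296.
Car4: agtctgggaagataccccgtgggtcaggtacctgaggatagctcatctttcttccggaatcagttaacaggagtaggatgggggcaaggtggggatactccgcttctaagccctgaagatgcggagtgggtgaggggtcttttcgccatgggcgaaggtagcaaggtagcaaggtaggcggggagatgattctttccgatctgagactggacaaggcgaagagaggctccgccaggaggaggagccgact
Car12: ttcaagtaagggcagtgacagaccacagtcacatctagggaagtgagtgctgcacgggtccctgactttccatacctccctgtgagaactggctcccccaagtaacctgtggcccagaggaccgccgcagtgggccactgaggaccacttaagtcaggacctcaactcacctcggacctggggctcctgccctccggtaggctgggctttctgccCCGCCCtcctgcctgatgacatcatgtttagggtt
On both strands of the Car4 and Car12 windows, the GC box GGGCGG, the hypoxia response core ACGTG and the TATA box TATAAA were sought. The search found 1 match, the GC box of Car12, which begins 35 bases before the start on the opposite strand. Among the windows not shown, that of Car5b and some of Car7 held the GC box, and that of Car14 held the hypoxia core. Of 32851 windows of the same length in the table, 32.7% held the GC box, 16.6% the hypoxia core and 12.4% the TATA box. The GC content of the 250 bases was 56.4% for Car4 and 59.2% for Car12, against a median of 52.4% over all windows. These are descriptions of letters in a window and not of binding.

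The deposited values are linear signals scaled to 1 common level per array, with array medians from 156.8 to 168.2, and carry no detection calls. Mthfd1, the trapped gene, had a signal of 453.1, 509.6 and 549.4 in heterozygous colon at its brightest probe set. In wild-type colon that probe set read 949.9, 838.6 and 881.4. The groups did not overlap at any of the 3 Mthfd1 probe sets, beside 10.4% of all tested probe sets. The dimmest, at 31.8 to 59.7, was below the filter on low values and was not tested with limma. The others had log2 fold changes, heterozygous minus wild-type, of -0.80 and -0.99 (limma adjusted p = 0.121 and 0.108). Neither passed the threshold of 0.05, although their 95% intervals, -1.08 to -0.52 and -1.32 to -0.65, excluded 0. All 6 colonocyte markers that are not members (Slc26a3, Aqp8, Krt20, Cdx2, Cdh17 and Vil1) exceeded the filter on low values, at signals of 667.8 to 7996.6. In this bulk tissue, fewer cells of a type and less RNA per cell cannot be told apart. The 4 red blood cell markers with a probe set of their own (Hba-a1, Alas2, Slc4a1 and Epb42), relevant because red cells also contain Car1 and Car2 protein, summed to 23.0 to 33.0 in heterozygous and 70.0 to 104 in wild-type arrays, with none at 0 and none above the filter. At Alas2, Slc4a1 and Epb42 each heterozygous signal was below every wild-type signal, beside 10.4% of all tested probe sets with groups that did not overlap. The groups of Hba-a1 overlapped. Signals this dim were not tested, and the amount of blood was not measured. Probe sets that carry several globin symbols were not used here.

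Car1 and Car2 gave the brightest signals of the 9 genes. Probe sets bind their targets with different strength, so the order of signals between genes is an order of brightness and not of transcript number. Car1 read 15639.9, 15442.6 and 19083.6 in heterozygous colon, against 16524.9, 16800.1 and 16365.3 in wild-type colon. It stood at or above the 99.8th percentile of all probe sets on every array, with heterozygous replicate 3 above and heterozygous replicates 1 and 2 below all 3 wild-type arrays. Car2, whose product is among the fastest enzymes known, read 9995.6, 10544.5 and 10261.2 in heterozygous colon and 9982.2, 9505.7 and 10123.8 in wild-type colon. The highest Car2 signal was 1.11 times the lowest, and the within-genotype SD of 0.04 on the log2 scale lay at the 1.2th percentile of the 13576 tested probe sets, whose median SD was 0.18. Car1, though brighter, had a within-genotype SD of 0.12, at the 23.3th percentile, and its highest signal was 1.24 times its lowest. Signals this near the top of an array's range can be compressed, and the files carry no saturation marks. Whether the spread of either gene reflects the scale was not tested.

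**Figure D1:**
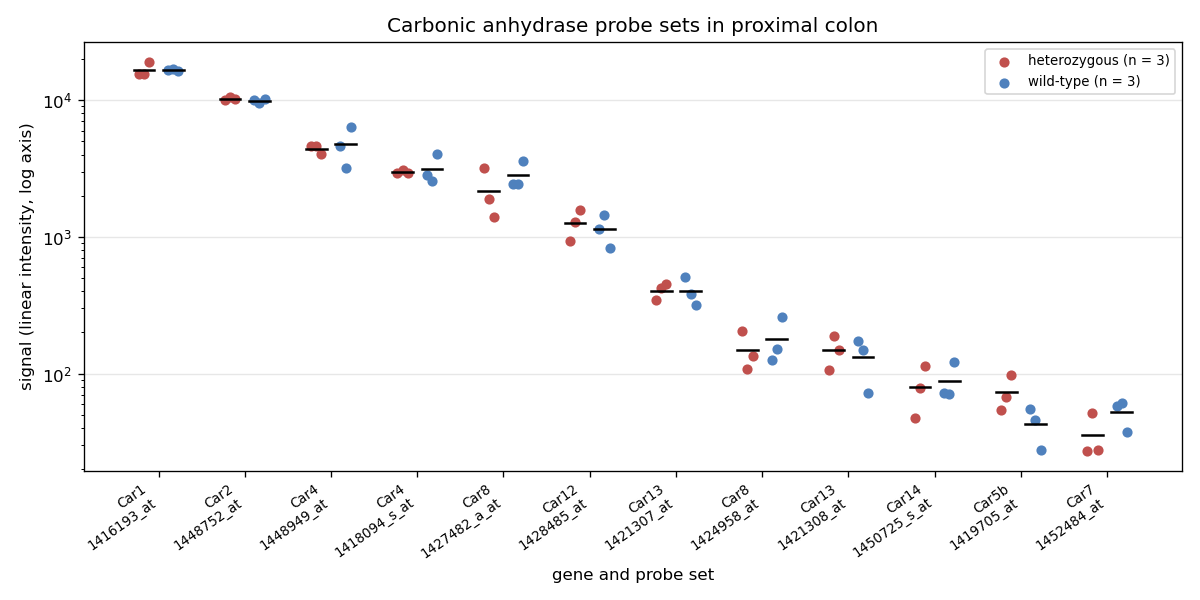
Signal of each carbonic anhydrase probe set (x axis, ordered by mean brightness) on a log axis of linear intensity, with 1 point per array, heterozygous in red and wild-type in blue, and black lines at the group means (n = 3 each). Car1 averages 16722 in heterozygous and 16563 in wild-type arrays, Car14, Car5b and Car7 lie between 27.1 and 122.2, and the groups overlap at all 12 probe sets.

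Car4, the lipid-anchored surface enzyme, was measured by a pair of probe sets that correlated at r = 0.93 over the 6 arrays. The brighter one read 4606.5, 4641.1 and 4025.2 in heterozygous colon, against 4648.3, 3205.8 and 6415.8 in wild-type colon. Its highest and lowest arrays were both wild-type, replicates 3 and 2, and all 3 heterozygous arrays fell between them. The other read 2930.6, 3077.6 and 2918.5 in heterozygous colon and 2853.0, 2549.3 and 4041.9 in wild-type colon, with the same pair of wild-type arrays at the extremes.

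Car12, the membrane-spanning enzyme of the basolateral side in many epithelia, read 937.6, 1286.9 and 1571.0 in heterozygous colon and 1143.2, 1434.6 and 834.1 in wild-type colon. Its spread within each genotype covered most of the range of the other, and wild-type replicate 3, the highest array for Car4, was the lowest for Car12. Car14, the other membrane-spanning member, fell below the filter on low values, at 47.4, 78.6 and 112.9 in heterozygous colon and 71.8, 70.7 and 122.2 in wild-type colon. The filter removed the dimmest 40% of probe sets by mean log2 value, those under a signal of about 93.3, and a gene below it is dim at its probe set, which does not show that it is not expressed.

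Car13, a cytosolic enzyme with a broad tissue distribution, read 346.0, 419.4 and 450.2 in heterozygous colon and 506.1, 381.1 and 316.2 in wild-type colon at its brighter probe set. The dimmer one ranged from 106.1 to 187.4 in heterozygous and from 72.3 to 172.2 in wild-type arrays, and the 2 probe sets correlated at r = 0.85 over the 6 arrays. Wild-type replicate 3 was lowest and wild-type replicate 1 among the highest at both. Car7, the cytosolic enzyme best known from neurons, was dim, at 27.1, 51.8 and 27.7 in heterozygous colon and 57.7, 60.9 and 37.2 in wild-type colon. Car5b, the mitochondrial enzyme, was dim as well, at 54.3, 67.2 and 97.1 in heterozygous colon and 54.9, 45.6 and 27.7 in wild-type colon. Car7 and Car5b were both below the filter, and their groups overlapped.

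Car8, the member without enzymatic activity, varied most of the 6 members that passed the filter, compared at their brighter probe sets. Its brighter probe set read 3193.5, 1892.7 and 1395.9 in heterozygous colon, against 2431.9, 2435.7 and 3577.8 in wild-type colon, a 2.56-fold range between the highest and lowest arrays. Wild-type replicate 3 and heterozygous replicate 1 were the highest arrays, and heterozygous replicates 2 and 3 were the lowest. The dimmer one ran from 107.8 to 203.3 in heterozygous and from 125.8 to 257.6 in wild-type arrays, had the same 2 arrays on top, and correlated with the brighter one at r = 0.79 over the 6 arrays. Within-genotype SDs on the log2 scale were 0.48 and 0.46 for the 2 probe sets, at the 97.0th and 96.4th percentiles of all tested probe sets.

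The comparison of heterozygous with wild-type colon asks whether expression differs when 1 Mthfd1 allele carries the trap. No carbonic anhydrase passed the test, and the arrays of the genotypes overlapped at every member probe set. Of 12 member probe sets, 9 from 6 genes passed the filter and were tested with limma on log2(signal + 16), and 0 had an adjusted p under 0.05, as did 0 of all 13576 tested probe sets (0% called, smallest adjusted p = 0.0540). At an unadjusted p under 0.05 the count was 0 of 9 member probe sets, beside 5.69% of all tested probe sets. The groups did not overlap for 0 of the 9, beside 10.4% of all. The members' limma adjusted p ran from 0.916 to 0.999. Log2 fold changes, heterozygous minus wild-type, were positive for 5 and negative for 4 of these probe sets, the 4 being those of Car4 and Car8. The median absolute value was 0.06, against 0.11 over all tested probe sets. Leaving out wild-type replicate 3 changed the sign of 7 of the 9.

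The 95% intervals differed widely between genes. Car2 had a log2 fold change of 0.06 with a 95% interval from -0.09 to 0.20, and Car1 one of 0.01 with an interval from -0.18 to 0.19. These were the narrowest of the 6 genes. Car4 had -0.05 at both probe sets, with intervals from -0.52 to 0.42 at the brighter and from -0.41 to 0.30 at the other. For Car13 the values were 0.03 (-0.38 to 0.44) and 0.19 (-0.49 to 0.87), and for Car12 the value was 0.15 (-0.36 to 0.67). Car8 had the largest difference among the tested members, with a mean signal of 2161 ± 928 in heterozygous and 2815 ± 660 in wild-type colon (SD, n = 3 each). Its log2 fold change was -0.44, SE 0.27, with an interval from -1.06 to 0.18 (limma adjusted p = 0.916; exact two-sided permutation p = 0.4). The dimmer Car8 probe set had -0.22, with an interval from -0.86 to 0.41. A 2-fold lower Car8 signal in heterozygous colon lies inside the interval of the brighter probe set and outside that of the dimmer one. The value at the brighter probe set depended on single arrays. Leaving out heterozygous replicate 3 gave -0.17, and leaving out wild-type replicate 3 gave -0.26. Leaving out heterozygous replicate 1 gave -0.76 with groups that did not overlap (limma adjusted p = 0.309). Groups separate more readily with fewer arrays, and the share over all tested probe sets is not given for that fit. For the 3 dim members, tested singly by the exact permutation test on log2(signal + 16), p was 0.9 for Car14, 0.2 for Car5b and 0.2 for Car7, where 0.1 is the smallest value that 3 against 3 arrays can give. Their log2 differences were -0.15, 0.60 and -0.41, with overlapping groups in each case. With one array left out, the difference ran from -0.39 to 0.12 for Car14 (positive when heterozygous replicate 1 or wild-type replicate 3 was omitted), from 0.40 to 0.75 for Car5b and from -0.63 to -0.30 for Car7, the last lowest without heterozygous replicate 2. At a pseudocount of 64, Car5b was at 0.36 and Car7 at -0.22.

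**Figure D2:**
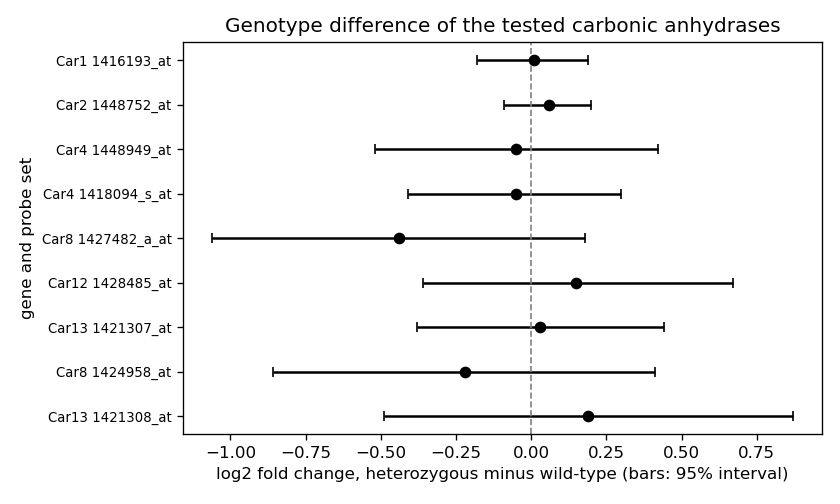
Log2 fold change, heterozygous minus wild-type, of the 9 tested carbonic anhydrase probe sets, with 95% intervals from limma (n = 3 arrays per genotype). Every interval includes 0, the narrowest are those of Car2 and Car1, and the interval of the brighter Car8 probe set runs from -1.06 to 0.18.

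Car4, Car8, Car12 and Car13 varied between arrays of one genotype. At the brighter probe set of each gene, wild-type replicate 3 stood 0.51 above the mean of the 6 arrays for Car4 and 0.59 above it for Car8 on the log2(signal + 16) scale. The same array stood at -0.48 for Car12 and -0.32 for Car13. Heterozygous replicate 1 was at 0.43 for Car8, -0.32 for Car12 and -0.19 for Car13, and near the mean for Car4, at 0.04. Car1 and Car2 stayed within 0.20 of their means on all 6 arrays.

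**Figure D3:**
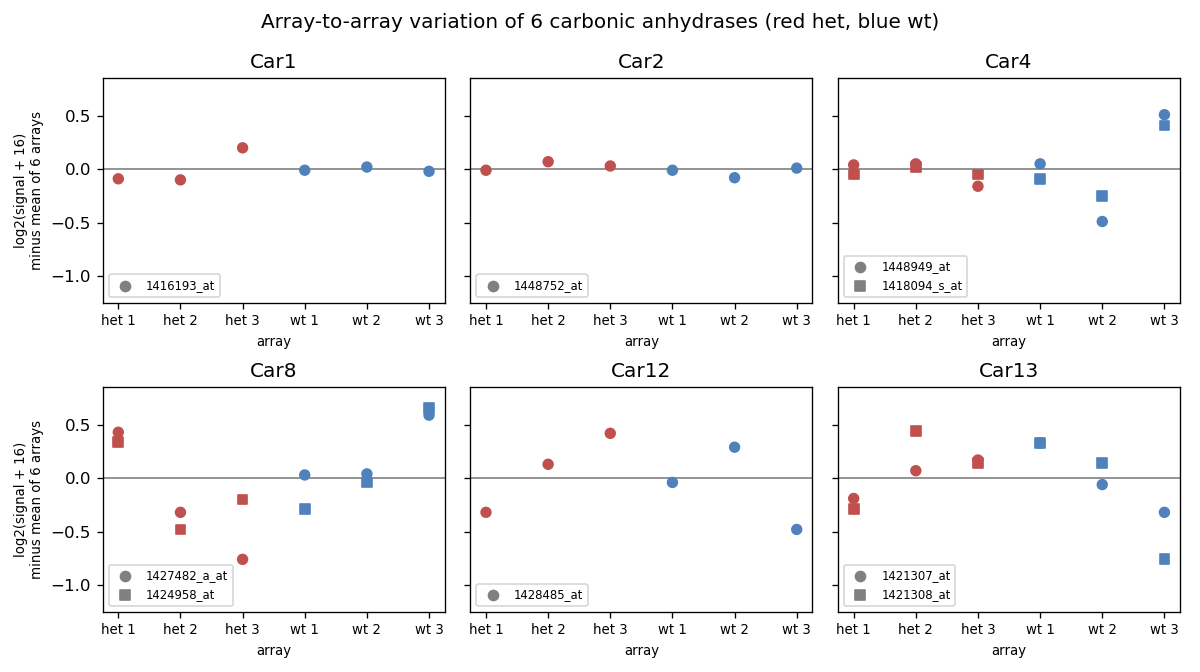
Deviation of log2(signal + 16) from the mean of the 6 arrays (y axis) for 6 carbonic anhydrase genes on each array (x axis), heterozygous (het) in red and wild-type (wt) in blue, with a separate marker shape for a second probe set. Wild-type replicate 3 is highest for Car4 and Car8 and lowest for Car12 and Car13, whereas Car2 stays between -0.08 and 0.07.

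Across the 6 arrays, the 15 pairs formed by the 6 tested genes were correlated at their brighter probe sets. The strongest relation was inverse, between Car8 and Car12 (Pearson r = -0.90, exact permutation p = 0.0167, adjusted p = 0.250 over the 15 pairs; Spearman rho = -0.83, exact permutation p = 0.0583, adjusted p = 0.438; n = 6). Car4 and Car12 were also inverse (r = -0.81, exact permutation p = 0.0472, adjusted p = 0.354; rho = -0.77, exact permutation p = 0.103, adjusted p = 0.514; n = 6). None of the 15 pairs passed after adjustment. Without the 2 arrays farthest from the median of the first gene, r was -0.72 for Car8 with Car12 and -0.77 for Car4 with Car12. The arrays pool both genotypes, and r is not given within a genotype, which has 3 arrays.

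Markers of some other cells varied with the same arrays, but not all did. Goblet cell sums were 41629, 42491 and 41209 and tuft cell sums 282, 299 and 268 in heterozygous replicates 1, 2 and 3. Neither was extreme on heterozygous replicate 1, though both were highest among wild-type arrays on replicate 3, at 48656 and 389. The summed signal of 6 smooth muscle markers was 44979, 35976 and 38964 in heterozygous replicates 1, 2 and 3 and 41512, 36794 and 51283 in wild-type replicates 1, 2 and 3. It was highest within each genotype on the array where Car8 was highest and Car12 lowest. Enteroendocrine markers (Chga, Chgb, Gcg and Pyy) summed to 7681, 4786 and 4341 in heterozygous and to 5444, 5017 and 7498 in wild-type arrays, again highest on those 2 arrays. Signals of Krt20, a keratin of mature surface cells, were lowest there, 5268.5 on the heterozygous and 4396.2 on the wild-type array of the pair, against 7570.6 to 7996.6 on the other 4 arrays. The other colonocyte markers that are not members were also lowest within each genotype on those arrays. Of the members on that list, Car4 was instead highest on wild-type replicate 3, and Car1 was lowest among heterozygous arrays on replicate 2. Ileal enterocyte markers summed to 11404, 26535 and 14543 in heterozygous and 18383, 31319 and 9299.9 in wild-type arrays. This sum was lowest within each genotype on those arrays. Slc10a2 and Apoc3 from that list were instead lowest among heterozygous arrays on replicate 3, at 170.3 and 179.1. Apoa1 ranged from 29.5 to 7711.8 and Fabp6 from 93.5 to 5661.9 over the 6 arrays. None of these markers was at 0 on any array, and their part in the variation of Car8, Car12, Car4 and Car13 was not tested.

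The genes whose pattern was most like that of Car1, among 12493 tested probe sets with 1 gene symbol that are not members, were Fez2 (r = 0.995), Mocos (r = 0.988) and Tab2 (r = 0.985), over 6 arrays. Each was highest on heterozygous replicate 3, as Car1 was, with Fez2 at 716.2 there and between 522.4 and 601.4 on the other arrays. With 6 arrays and this many probe sets, correlations of this size are a ranking and carry no test.

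Partners of the carbonic anhydrases in acid and base transport were read from a list of 30 genes, of which 24 had a probe set of their own and 14 were tested. In heterozygous against wild-type colon 0 of the 14 rose and 0 fell by limma's adjusted p, 1 had an unadjusted p under 0.05 (beside 5.69% of all tested probe sets), and 6 had positive and 8 negative log2 fold changes (51.6% of all tested genes were positive). The median was -0.23, beside 0.01 over all 8241 tested genes, and leaving out 1 array moved it to -0.05 (heterozygous replicate 1) or 0.02 (wild-type replicate 2). It was 0.07 at the 60th percentile filter. The brightest probe sets were those of Slc9a3r1, a scaffold of the apical sodium-proton exchanger, Slc16a1, which carries lactate and butyrate with protons, its partner chain Bsg, the sulfate transporter Slc26a2 and the chloride-bicarbonate exchanger Slc26a3. Log2 fold changes of the first 4 were -0.22, 0.14, 0.13 and 0.02, with overlapping groups for each. Slc26a3 read 3253.8, 3873.1 and 4445.6 in heterozygous colon, against 4884.8, 4659.2 and 4090.1 in wild-type colon (log2 fold change -0.24, limma adjusted p = 0.908), and the groups overlapped. Slc9a8, a sodium-proton exchanger, read 166.6, 156.4 and 158.4 in heterozygous colon and 228.2, 202.8 and 217.5 in wild-type colon. It was the 1 tested partner of 14 whose groups did not overlap, beside 10.4% of all tested probe sets (log2 fold change -0.39, SE 0.14, limma adjusted p = 0.752), and it did not pass. Slc9a3r2, a scaffold of the same kind as Slc9a3r1, had a log2 fold change of -0.34 (limma adjusted p = 0.904). Aqp8, a water channel of surface colonocytes, ranged from 1128.3 to 3454.3 in heterozygous and from 667.8 to 2562.1 in wild-type arrays, lowest in each genotype on the 2 arrays where Car12 was lowest.

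The array also measured 7 carbonic anhydrase genes that are not among the 9. Car3, an enzyme abundant in fat and slow muscle, was measured by a pair of probe sets. The brighter one read 12085.9, 14294.3 and 14452.4 in heterozygous colon, against 14971.1, 15920.9 and 11594.7 in wild-type colon (log2 fold change -0.05, limma adjusted p = 0.982). The dimmer one ranged from 1823.8 to 3001.6 (log2 fold change -0.08, limma adjusted p = 0.983). Fat markers were bright on the same arrays, with Adipoq, a hormone of fat cells, at 4420.1 to 5471.7 in heterozygous and 4204.1 to 6481.2 in wild-type arrays. Adipoq and Car3 were both lowest within each genotype on heterozygous replicate 1 and wild-type replicate 3, and the part of attached fat in the Car3 signal was not tested. Car9, a membrane-spanning enzyme induced by hypoxia, read 846.0, 964.1 and 910.0 in heterozygous and 916.3, 922.9 and 856.7 in wild-type colon (log2 fold change 0.01, limma adjusted p = 0.999). Car5a, Car6, Car10, Car11 and Car15 were all below the filter, with signals from 1.7 to 144.8. Of the receptor phosphatases that carry a carbonic anhydrase-like domain, Ptprg had a log2 fold change of -0.19 (limma adjusted p = 0.943) and Ptprz1 one of -0.33 at its brightest probe set (limma adjusted p = 0.936).

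**Figure D4:**
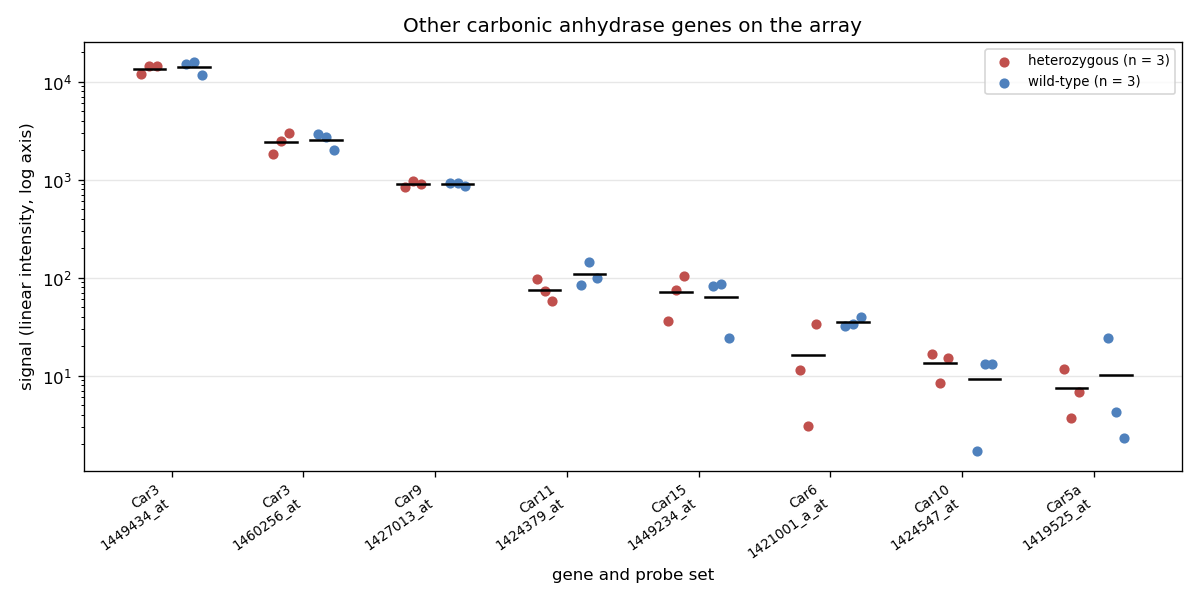
Signal of the carbonic anhydrase probe sets outside the 9 genes (x axis) on a log axis of linear intensity, 1 point per array, heterozygous in red and wild-type in blue, with black lines at group means (n = 3 each). Car3 reaches 15920.9, Car9 stays between 846.0 and 964.1, and the remaining 5 genes lie at or below 144.8.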

How the data were processed

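The authors deposited a linear intensity for every probe set on each array, made with GCOS per the submitters' processing notes, with a version and settings that the labels do not state. The mean of each deposited array without the top and bottom 2% of probe sets was 500. Of 22690 probe sets, 64 controls were left out. Genes were named from the platform annotation where a probe set had 1 symbol (20380), and the GRCm38.p6 gene table altered 0 of these symbols. Start regions came from RefSeq. Intensities entered as log2(signal + 16), which understates changes of dim genes. The dimmest 40% by mean log2 value were removed, and 13576 were tested with limma 3.58.1 in R 4.3.3 (variance trend, two-sided, Benjamini-Hochberg over all tested probe sets, threshold 0.05), after a test on simulated data. Alternatives kept the tested probe sets unless the filter itself was varied. Single values used an exact permutation test in scipy 1.17.1. A gene in a list was represented by its brightest probe set. Named are all members, the other carbonic anhydrases measured, the 5 brightest partners and the 3 with the smallest p, and the 3 genes most like Car1; Aqp8, Krt20 and Adipoq come from the marker lists. Members and lists were chosen with earlier results of these data known. Titles call the arrays biological replicates. Their number, 3 per genotype, limits the precision.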

Additional observations from a re-analysis of the deposited data

How the results depend on the processing

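Over 15 alternatives, 0 of 136 tested member values passed the threshold (smallest limma adjusted p = 0.309), and 122 kept their direction. The 14 that did not changed sign, from main-fit values between -0.22 (the dimmer Car8) and 0.19 (the dimmer Car13). Without wild-type replicate 3 these were Car1 (-0.00), Car4 (0.19 and 0.14), Car12 (-0.05), Car13 (-0.12 and -0.14) and the dimmer Car8 probe set (0.05). Without heterozygous replicate 3 they were Car1 (-0.09), the brighter Car4 (0.02), Car12 (-0.02) and the brighter Car13 (-0.05). With one array left out, values ran from -0.09 to 0.06 for Car1, from -0.31 to 0.19 and from -0.19 to 0.14 for Car4, from -0.05 to 0.35 for Car12, from -0.12 to 0.21 and from -0.14 to 0.41 for Car13, and from -0.76 to -0.17 and from -0.45 to 0.05 for Car8. Array weights gave 0.04 and 0.01 for Car4, and quantile normalization -0.01 for Car1. Among the 9 tested member probe sets, the count whose groups did not overlap was 0 to 2 with one array left out. It was 2 (Car2 and the brighter Car8) without heterozygous replicate 1 and 2 (Car2 and the dimmer Car4) without wild-type replicate 3. Groups separate more readily with fewer arrays, and the share over all tested probe sets is not given for these fits. The count of these 9 at an unadjusted p under 0.05 was 0 to 1, the 1 being the brighter Car8 without heterozygous replicate 1. In that fit, 1000 of all 13576 tested probe sets had an unadjusted p under 0.05. Over all probe sets the count past the threshold was 8 with robust variance, 4 with array weights and 0 to 39 with one array left out. The highest was without heterozygous replicate 1, and it was 2 without wild-type replicate 3. The count at an unadjusted p under 0.05 was 1395 without the filter, 443 at the 60th percentile filter and 444 to 1037 with one array left out, lowest without heterozygous replicate 3. The partner median was 0.07 at the 60th percentile filter, which tests fewer genes, and -0.20 to 0.02 with one array left out. Deviations of same-numbered arrays correlated at -0.124, 0.493 and 0.042, against -0.474 to 0.416 for differently numbered arrays. With so few arrays per genotype, these values cannot show whether the replicate numbers pair the arrays. With the replicate block, the count past the threshold was 0 and the count at an unadjusted p under 0.05 was 921. Apart from the array-left-out fits named above, the cause of these shifts was not tested.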
